A study of Mus musculus with 4 samples.

Results

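Genes of the hepatic plasma proteins were compared between the dorsal part and the ventral part of the mouse tracheoesophageal anlage, together with *Hhex* and *Hnf4a*, which encode transcription factors of the liver endoderm. The 10 genes *Afp*, *Alb*, *Ttr*, *Hhex*, *Apoa1*, *Apoa2*, *Apob*, *Apoe*, *Rbp4* and *Hnf4a* were taken by name, with every probe set that the platform annotation assigns to one of them alone. This gave 24 probe sets of the 34945 that carry a single gene symbol, and 10 of 18193 named genes. The samples came from BALB/c embryos at about E9.75, when the foregut is a single tube with the lung bud as a ventral swelling. The tube was cut out between the pharynx and the end of the lung bud and split manually along its length into both parts, each measured on 2 Affymetrix arrays. No treatment or engineered allele is given for either part. The replicates are called biological, but no litter or pool is given for them, so the p-values reflect array-to-array spread alone, which may be technical. Each part held epithelium and mesenchyme together, and more cells of a type cannot be told apart from more RNA per cell.

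The liver arises from ventral endoderm of the foregut, next to the heart and behind the level of the lung bud. Hepatoblasts, the liver progenitors, express *Hhex*, *Hnf4a*, *Afp*, *Alb* and *Ttr* early, and the visceral endoderm of the yolk sac makes many of the same secreted proteins. Several of these genes are also used elsewhere. *Hhex* is expressed in thyroid endoderm and in blood vessels, and *Apoe* is made by many cell types besides liver.

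RMA values are background-corrected, normalized summaries of the probes of a probe set, and they are read here as log2. Across each array the median value was 5.42 to 5.47, and the 40th percentile, which served as the lower bound for testing, was 4.69 to 4.82. The upper quartile was 7.75 on ventral replicate 2 and up to 8.02 on the other arrays, and the ventral arrays differed from each other more than the dorsal arrays did (median 0.27 against 0.08). Differences are given as dorsal minus ventral, so a negative value means a higher ventral level. Standard errors and adjusted p-values are from one limma fit over 23326 probe sets, with 2 arrays per part. With so few arrays, the smallest two-sided p of an exact permutation test is 0.333. The epithelial marker *Epcam* (9.69 to 10.19) and the endodermal forkhead gene *Foxa2* (8.95 to 9.53) lay above the upper quartile on all 4 arrays in the probe set with the highest mean. The epithelial gene *Rab25* (6.71 to 7.32) lay below it, and *Nkx2-1*, a marker of respiratory and thyroid endoderm, lay at 5.03 to 5.25, below the median of every array.

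*Afp*, *Ttr*, *Hhex* and *Apoe* were higher in the ventral part, and the other 6 genes gave no probe set that passed the test in either direction. Of the 24 probe sets, 15 were tested. Of these, 10 were higher ventrally, none was higher dorsally and 5 did not pass. Among all tested probe sets 2.56% were higher ventrally and 3.28% dorsally. The members were chosen with earlier results of these data known, so such shares do not show their counts to be unusual. The ventral calls came from 4 probe sets of *Afp*, 4 of *Ttr* and 1 each of *Hhex* and *Apoe*, so they are not independent of each other. One *Afp* probe set, 1436881_x_at, entered the test only through its ventral arrays, and without a filter 9 member probe sets passed. In 12 of the 15 the ventral arrays lay above both dorsal arrays without overlap, against 16.4% of all tested probe sets, and in none the other way, against 31.8%. The other 9 probe sets did not exceed the 40th percentile on 2 arrays and were not tested. Their values ran from 3.01 to 4.83, and without the filter their adjusted p ran from 0.147 to 0.980 from limma.

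**Figure D1:**
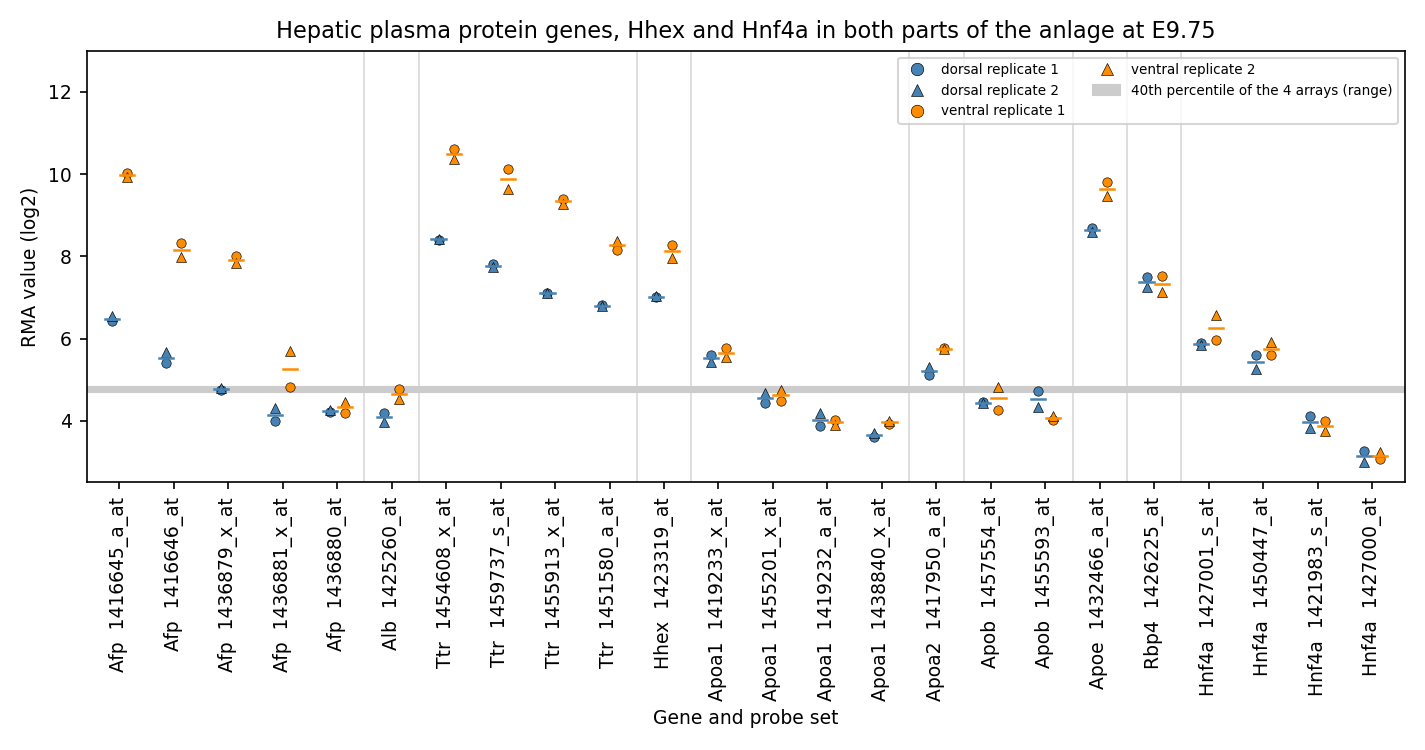
RMA values (log2, vertical axis) of all 24 probe sets of the 10 genes, with 1 point per array and a bar for each part's mean. Probe sets of *Afp* and *Ttr* stand apart between the parts by up to 3.50, except *Afp* 1436880_at, which overlaps. That probe set, *Alb*, *Apob* and most probe sets of *Apoa1* lie near or below the grey band of the 40th percentiles (4.69 to 4.82).

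*Afp* encodes alpha-fetoprotein, the main plasma protein of the fetus, which is made by yolk sac endoderm and by hepatoblasts. Its probe set with the highest level, 1416645_a_at, read 6.42 and 6.55 in the dorsal pair and 10.02 and 9.94 in the ventral pair. Both ventral arrays were far above both dorsal ones, whose values already lay above the array median. The ventral level was 11.3-fold higher (difference -3.50 on the log2 scale, with a standard error of 0.16 and adjusted p = 5.95e-07 from limma). It was -3.60 between the replicates 1 and -3.39 between the replicates 2. By size this difference was in place 25 in the ventral direction among the 13138 tested genes.

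The other *Afp* probe sets did not all give that size. Probe set 1436879_x_at read 4.74 and 4.80 dorsally and 8.00 and 7.84 ventrally, and 1416646_at read 5.40 and 5.66 dorsally and 8.32 and 7.99 ventrally. Their differences were -3.14 and -2.62 (adjusted p = 1.26e-06 and 1.02e-05 from limma), again without overlap. Probe set 1436881_x_at was much lower, at 3.98 and 4.31 dorsally and 4.81 and 5.70 ventrally, and it passed the filter only through its ventral arrays. Its difference was -1.11 (standard error 0.26, adjusted p = 0.0321 from limma), or -0.53 against the dorsal 40th percentile. This call was lost without a filter (adjusted p = 0.0751), with quantile normalization once more (adjusted p = 0.149) and without dorsal replicate 1 (-0.95, adjusted p = 0.10 from limma), and the probe set was not tested without either ventral array. The fifth probe set, 1436880_at, lay at 4.18 to 4.46 on all arrays with overlap between the parts. Probe sets 1416645_a_at, 1436879_x_at and 1436881_x_at carry a suffix of probe sets that can match several transcripts, while 1416646_at and 1436880_at do not.

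*Alb*, the neighbour of *Afp* in the genome, encodes serum albumin, which takes over from alpha-fetoprotein as the main plasma protein. Its one probe set read 4.19 and 3.98 dorsally and 4.78 and 4.52 ventrally. The ventral arrays were the higher ones, but only ventral replicate 1 exceeded its 40th percentile, so *Alb* was not tested. The difference of these low values was -0.57, and without the filter its adjusted p was 0.147 from limma (unadjusted p = 0.00865). *Alb* thus lay between percentiles 26.7 and 41.3 of the arrays, in both parts.

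The promoters of these neighbours are shown because *Afp* and *Alb* belong to one gene family and start 29.8 kb apart, and *Afp* was called while *Alb* was too low to be tested. The letters are the 250 bases before each RefSeq start in the mouse assembly GRCm38.p6, plus strand, at chr5:90490464-90490713 for *Afp* and chr5:90460620-90460869 for *Alb*. Capitals mark matches, on either strand, to the HNF1 core GTTAAT, the HNF4 site CAAAGTC, the FOXA site TGTTTNC, the C/EBP site TTGCNNAA and the TATA box TATAAA.
Afp: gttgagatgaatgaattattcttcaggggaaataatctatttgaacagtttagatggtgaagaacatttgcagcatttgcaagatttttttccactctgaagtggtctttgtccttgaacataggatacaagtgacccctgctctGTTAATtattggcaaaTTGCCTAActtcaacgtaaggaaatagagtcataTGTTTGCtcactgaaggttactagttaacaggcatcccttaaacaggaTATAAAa
Alb: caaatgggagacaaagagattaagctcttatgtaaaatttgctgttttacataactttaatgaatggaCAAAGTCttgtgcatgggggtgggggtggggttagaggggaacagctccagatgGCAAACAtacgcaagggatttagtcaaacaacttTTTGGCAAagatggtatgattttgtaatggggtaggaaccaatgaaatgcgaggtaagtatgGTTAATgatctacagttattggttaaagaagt

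Both windows held an HNF1 core, at -105 to -100 in *Afp* and at -32 to -27 in *Alb*, and this match occurs in 6.43% of all 32851 promoter windows of that length. Both also held a FOXA site (-55 to -49 in *Afp*, -128 to -122 in *Alb*, 17.8% of all windows) and a C/EBP site (-89 to -82 and -94 to -87, 9.56% of all windows). The HNF4 site was matched in *Alb* alone of the 2, at -182 to -176 (3.84% of all windows), and the TATA box in *Afp* alone, at -7 to -2 (12.4% of all windows). None of these matches overlapped another. Only exact letters before the annotated start were searched, so a motif without a match here is not shown to be absent from the promoter. The motif letters were chosen after matches had been seen, so the shares do not show the matches to be unusual. Of the other members, *Hnf4a* and *Apoe* held the HNF1 core before 1 of their annotated starts, and the window of *Hhex* held none of the 5 motifs. *Ttr* had no entry.

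*Ttr* encodes transthyretin, the carrier of thyroid hormone and of the retinol-binding protein. All 4 of its probe sets were higher ventrally without overlap. The highest, 1454608_x_at, read 8.41 and 8.42 dorsally and 10.61 and 10.37 ventrally, a 4.22-fold higher ventral level (difference -2.08, standard error 0.17, adjusted p = 2.85e-05 from limma). Probe sets 1459737_s_at and 1455913_x_at gave -2.10 and -2.23. Probe set 1451580_a_at gave the smallest difference, with 6.81 and 6.79 dorsally and 8.16 and 8.37 ventrally (-1.47, adjusted p = 0.000306 from limma). Every *Ttr* probe set was at or above percentile 64.5 of the dorsal arrays, and the *Ttr* call was made in every alternative that tested these probe sets. All 4 carry the suffix of probe sets that can match several transcripts.

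*Rbp4* encodes the retinol-binding protein of plasma, which travels bound to transthyretin. It read 7.50 and 7.26 dorsally and 7.53 and 7.13 ventrally. The parts overlapped fully at a level between percentiles 68.8 and 70.8 of the arrays. The difference was 0.05 (95% interval -0.37 to 0.47, adjusted p = 0.925 from limma), and its sign turned under quantile normalization once more (-0.042), without dorsal replicate 1 (-0.07) and without ventral replicate 2 (-0.15). *Rbp4* thus showed no difference beyond its error while the gene of its carrier did. A test of the difference between the 2 genes was not made.

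*Hhex* encodes a homeodomain factor that is needed for the budding of the liver and is also active in thyroid endoderm and endothelium. Its one probe set read 7.00 and 7.03 for the dorsal part and 8.29 and 7.95 for the ventral part. The ventral arrays were both higher, by more than they differed from each other. The ventral level was 2.15-fold higher (difference -1.10, standard error 0.18, adjusted p = 0.00325 from limma). The difference ran from -0.93 without ventral replicate 1 to -1.27 without ventral replicate 2, and *Hhex* passed the test in every alternative, with adjusted p up to 0.0304.

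*Hnf4a* encodes a nuclear receptor that drives many plasma protein genes of liver and yolk sac. Probe set 1427001_s_at read 5.88 and 5.85 dorsally and 5.97 and 6.57 ventrally. The ventral values were above the dorsal ones, but the lower of them by only a little. The difference was -0.40 (95% interval -0.86 to 0.05, adjusted p = 0.389 from limma), and it was -0.70 without ventral replicate 1, where it passed (adjusted p = 0.0179 from limma). That fit took its spread from the dorsal pair alone and called 8893 probe sets, 2149 of them ventral. Probe set 1450447_at read 5.60 and 5.26 dorsally and 5.59 and 5.91 ventrally, with overlap (difference -0.32, adjusted p = 0.467 from limma). The other 2 probe sets lay at 3.01 to 4.12 and were not tested.

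**Figure D2:**
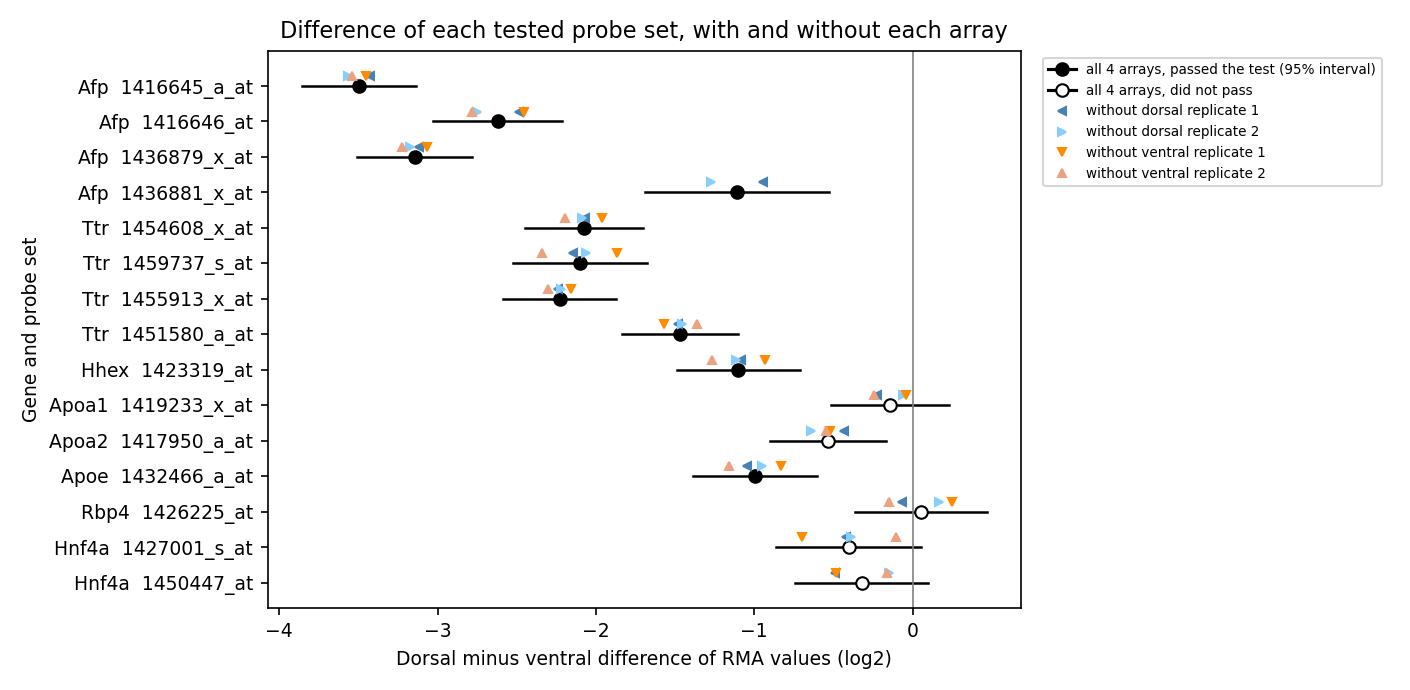
Difference in log2 RMA value, dorsal minus ventral (horizontal axis), of the 15 tested probe sets, with the 95% interval from limma and, as small triangles, the value when 1 array is left out. The intervals of *Afp*, *Ttr*, *Hhex* and *Apoe* lie below 0, those of *Apoa1*, *Rbp4* and *Hnf4a* cross it, and that of *Apoa2* lies below 0 before adjustment.

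The apolipoproteins did not move as a group. *Apoe*, which encodes a ligand of lipoprotein receptors, read 8.68 and 8.59 dorsally and 9.80 and 9.47 ventrally. It was high in both parts, at percentiles 79.9 to 88.4, and the ventral level was 1.99-fold higher (difference -0.996, standard error 0.18, adjusted p = 0.00611 from limma). This call was lost without dorsal replicate 2 (-0.95, adjusted p = 0.10 from limma).

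*Apoa2*, a component of high-density lipoprotein, read 5.11 and 5.31 dorsally and 5.76 and 5.73 ventrally. Both ventral arrays were higher, but the difference of -0.54 did not pass (standard error 0.17, adjusted p = 0.106 from limma). It passed without ventral replicate 1 (-0.52, adjusted p = 0.0401 from limma), in the fit with 8893 calls described for *Hnf4a*. *Apoa1*, the main protein of high-density lipoprotein, had 1 tested probe set, 1419233_x_at, which read 5.60 and 5.43 dorsally and 5.76 and 5.56 ventrally (difference -0.14, 95% interval -0.52 to 0.23, adjusted p = 0.726 from limma). Its other 3 probe sets lay at 3.61 to 4.75 on all arrays. The 2 probe sets of *Apob*, the structural protein of low-density lipoprotein, lay at 4.01 to 4.83 and were not tested. One of them, 1455593_at, was the lone member probe set with both dorsal values (4.73 and 4.35) above both ventral ones (4.01 and 4.11), all of them low.

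Most other genes of the liver programme that were tested did not pass, but some were called. Of 16 liver regulators with a probe set, 12 were tested. *Gata4* and *Gata6* were higher ventrally and *Onecut2* dorsally, and the median difference was -0.10, where that of all tested genes was 0.07 and where 3.01% of genes were higher ventrally and 3.44% dorsally. *Gata4*, a zinc finger factor of foregut endoderm, heart and gut mesenchyme, read 6.80 and 6.80 dorsally and 10.21 and 9.48 ventrally (difference -3.05, adjusted p = 1.53e-05 from limma), and *Gata6* differed by -2.15. *Onecut2* differed by 0.82 (adjusted p = 0.0334 from limma) in its probe set with the highest mean. That probe set did not pass when any 1 of the 4 arrays was left out (0.63 to 1.01). Nor did it pass without a filter (adjusted p = 0.0636) or with quantile normalization once more (adjusted p = 0.0786 from limma). The other *Onecut2* probe sets were also higher dorsally without overlap (0.84 and 1.09, adjusted p = 0.0106 and 0.00247 from limma). The forkhead genes *Foxa1* and *Foxa2* differed by -0.63 and -0.36 and did not pass (adjusted p = 0.0634 and 0.389 from limma). With quantile normalization once more 4 liver regulators were higher ventrally, and without ventral replicate 2 there were 5. *Prox1* and *Cebpa*, which act in hepatoblasts, were not tested, with values of 2.95 to 4.76 over their probe sets.

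Among 23 other plasma protein genes with a probe set, 11 were tested and 11 lay below the 40th percentile on all arrays, among them the fibrinogen genes *Fga* and *Fgg* and the fetuin gene *Ahsg*. *Apoa5* (-0.91), *Serpina1c* (-0.85) and *Serpina1b* (-0.65) were higher ventrally (adjusted p = 0.0286, 0.0129 and 0.0467 from limma). None was higher dorsally and 8 did not pass, with a list median of -0.12. Among all tested genes 3.01% were higher ventrally and 3.44% dorsally. The *Serpina1* genes are near-identical copies whose probe sets may not tell them apart. *Serpina1b* and *Serpina1c* lost their calls when dorsal replicate 1 (-0.74 and -0.97) or dorsal replicate 2 (-0.57 and -0.73) was left out, and *Apoa5* did not pass without dorsal replicate 2 (-0.63) or ventral replicate 2 (-0.77). Without a filter 1 of the 3 passed, with *Apoa5* at adjusted p = 0.0612 and *Serpina1b* at adjusted p = 0.0683 from limma, and *Apoa5* also failed with quantile normalization once more (adjusted p = 0.112 from limma).

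Of 12 tested genes that handle lipoproteins and retinol, *Vldlr*, a receptor that binds apolipoprotein E, was higher ventrally, and 11 did not pass (median 0.07). Its probe set with the highest level read 7.79 and 7.83 dorsally and 8.89 and 8.67 ventrally (difference -0.97, adjusted p = 0.00525 from limma), and the call was lost without dorsal replicate 1 (-0.94) or dorsal replicate 2 (-0.99). Without ventral replicate 1 this list had 3 ventral and 4 dorsal calls. *Stra6*, the receptor for the retinol-binding protein, differed by 0.67 (adjusted p = 0.0712 from limma). *Mttp*, which loads lipid on apolipoprotein B, differed by -0.43 (adjusted p = 0.242 from limma). *Lrp8* differed by 0.39 in its probe set with the highest mean (adjusted p = 0.259 from limma). Another *Lrp8* probe set passed dorsally without overlap (0.81, adjusted p = 0.0152 from limma). Further *Vldlr* probe sets passed ventrally (-1.21, -0.91 and -0.86, adjusted p = 0.0123, 0.0223 and 0.00887 from limma).

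**Figure D3:**
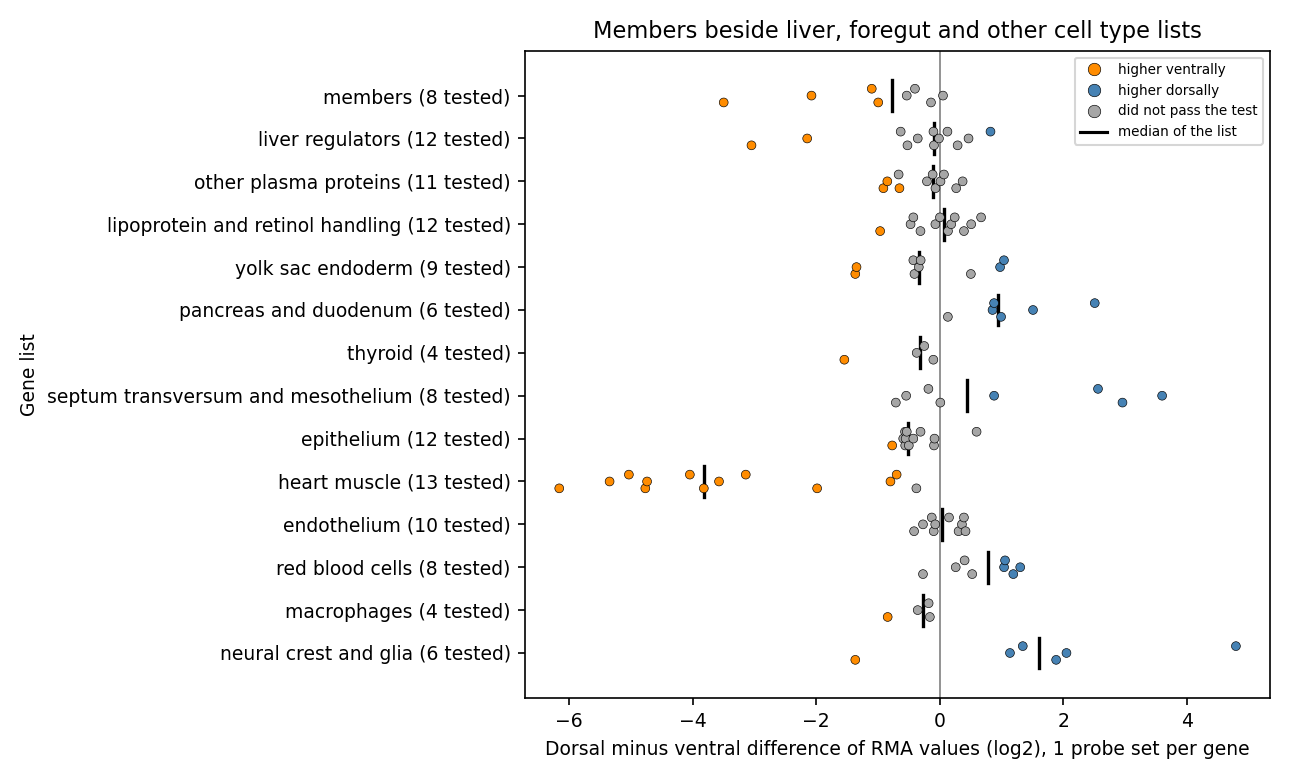
Difference in log2 RMA value, dorsal minus ventral (horizontal axis), of the tested genes of each list. Each point is the probe set of a gene with the highest mean, its colour shows the limma result, and a bar marks the list's median. The members have a median of -0.77, the heart muscle genes one of -3.82 and the genes of pancreas and duodenum one of 0.93.

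Markers of other cell types were set beside the members. Of 13 tested heart muscle genes 12 were higher ventrally, and the mean value of the whole list was 5.79 to 5.80 dorsally and 8.71 to 8.89 ventrally. Among them were *Tnnt2* (-5.34), *Myl4* (-5.03), *Csrp3* (-4.76) and *Myh6*, which encode parts of the muscle fibre. *Myh6* lay below the dorsal 40th percentile, and against that bound it differed by -5.33. For yolk sac endoderm, 9 of 11 genes were tested. *Rhox5* (-1.37) and *Spink1* were higher ventrally, *Lrp2* (1.04) and *Sox17* (0.98) dorsally, and the mean value of the list was 6.01 to 6.03 dorsally and 6.10 to 6.26 ventrally. *Amn* and *Cubn*, which encode the receptor complex of visceral endoderm, were not tested, at 3.82 to 4.44 and 3.13 to 4.98. *Spink1* was tested only through its ventral arrays (-1.11 against the dorsal 40th percentile) and was lost with quantile normalization once more (adjusted p = 0.0513 from limma). *Lrp2* did not pass with that normalization (adjusted p = 0.0861 from limma) or without dorsal replicate 1 (0.97), and *Sox17* lost its call when dorsal replicate 1 (0.96) or dorsal replicate 2 (0.99) was left out.

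For *Hhex*, the thyroid and endothelial lists bear on its other sites. Of 4 tested thyroid genes *Tg* was higher ventrally (adjusted p = 0.000984 from limma) and 3 did not pass. *Tg* was tested only through its ventral arrays, so without either of them it was not tested, and it differed by -1.34 against the dorsal 40th percentile. The thyroid list had a mean value of 4.63 to 4.68 dorsally and 5.05 to 5.24 ventrally. *Pax8* was not tested, at 3.41 to 4.08. None of 10 endothelial genes passed with all arrays and the deposited values. With quantile normalization once more 1 was higher ventrally, and without ventral replicate 1 there were 4 dorsal calls. The mean list value was 7.71 to 7.77 dorsally and 7.49 to 7.85 ventrally. For *Apoe*, 7 of 11 macrophage genes lay below the 40th percentile on all arrays, and *Fcgr3* alone of the 4 tested was higher ventrally (adjusted p = 0.0497 from limma). *Fcgr3* was tested only through its ventral arrays (-0.61 against the dorsal 40th percentile), and its call was lost without a filter (adjusted p = 0.0952), with quantile normalization once more (adjusted p = 0.182 from limma) and without dorsal replicate 2 (-0.62). The mean macrophage value was 4.39 to 4.41 dorsally and 4.41 to 4.70 ventrally. Of 12 epithelial genes *Grhl2* was higher ventrally (-0.77, adjusted p = 0.0162 from limma) and 11 did not pass, but the list median was -0.52. There were 6 epithelial ventral calls with quantile normalization once more, 4 with the highest probe set of each gene fitted alone and 0 to 7 with 1 array left out. *Grhl2* differed by -0.24 with its probe sets averaged (adjusted p = 0.428 from limma) and lost its call when dorsal replicate 1 (-0.81) or dorsal replicate 2 (-0.73) was left out. The mean epithelial value was 8.93 to 8.94 dorsally and 9.16 to 9.44 ventrally. The part of these cell types in the members' differences was not tested.

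The profile over the arrays was compared with that of every tested gene, as the Euclidean distance of the 4 values after subtracting each gene's mean. Closest to *Afp* were *Ppp1r17* (0.10), *Gata5* (0.17), *Hmga2-ps1* (0.28), *Colec10* (0.32) and *Ldb3* (0.32). *Gata5* read 6.33 and 6.46 dorsally and 10.14 and 9.94 ventrally, a difference of -3.64. Closest to *Hhex* were *Cpm* (0.02), *Slco4a1* (0.05), *Hpgd* (0.05), *Igfbp5* (0.07) and *Armh4* (0.08), whose differences ran from -1.03 to -1.12. With 4 arrays and 13138 genes, likeness of this kind describes mainly the size of the difference and the spread of the ventral pair.

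**Figure D4:**
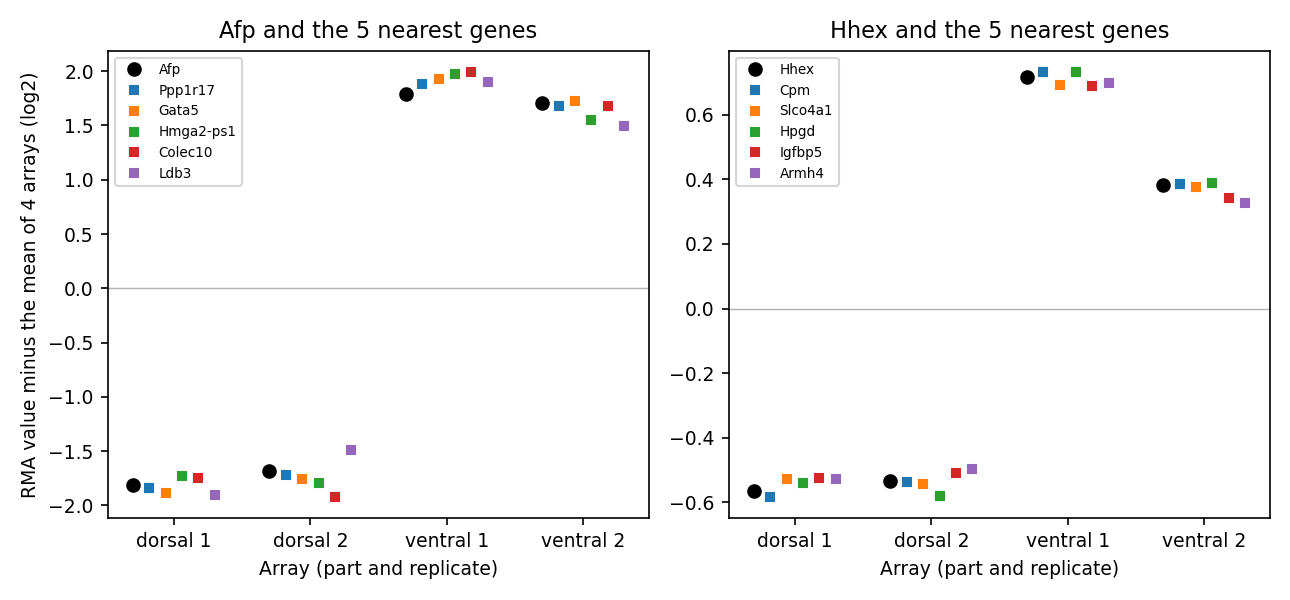
RMA value minus the mean of the 4 arrays (log2, vertical axis) for *Afp* and *Hhex* and the 5 genes nearest to each, with 1 point per gene and array. The *Afp* group is spaced about its difference of -3.50 and the *Hhex* group about -1.10, and ventral replicate 1 lies above ventral replicate 2 for *Hhex* and its 5 nearest genes.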

How the data were processed

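The authors labelled cRNA from 100 ng of total RNA per sample in 2 cycles and made 1 value per probe set by RMA, a step named in the submitters' processing notes. The deposited values are taken as log2 because they run from 2.36 to 15.02. Scale and RMA software were not given in the sources used here. There were no detection calls to use. Of 45101 probe sets, 64 were controls, 34945 had 1 symbol in GEO's platform annotation, 932 had several and 9160 were not named here. Identifiers of 34741 were found in RefSeq's table for GRCm38.p6, and no symbol changed.

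The 23326 probe sets that exceeded the 40th percentile on 2 or more arrays were tested for dorsal minus ventral by limma 3.58.1 (lmFit, then eBayes; R 4.3.3), two-sided, with Benjamini-Hochberg adjustment and a threshold of 0.05. Of these, 3738 had an unadjusted p under 0.05. For lists, the probe set of each gene with the highest mean stood for it. Members and lists were chosen with earlier results of these data known, and the motif letters after matches had been seen. In the other lists, the up to 4 called genes with the largest differences were named, or all where 5 or fewer passed, and others after their values were seen. The test was checked on simulated arrays with the same spread in both parts, so the check did not cover the larger spread of the ventral pair. The number of arrays limits the precision. Promoters are from RefSeq, with entries for 9 of the 10 genes. The alternatives were filters, thresholds, normalization, 1 value per gene, other eBayes settings, the replicate number as a block and each array left out.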

Additional observations from a re-analysis of the deposited data

How the results depend on the processing

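With all arrays, 10 member probe sets were higher ventrally and none dorsally, and no alternative gave a dorsal call. The ventral count was 4 with the highest probe set of each gene and 4 with probe sets averaged per gene, where each gene gives 1 value and *Afp* was at -2.09, and 2 without probe sets that match several transcripts, where those of *Ttr* and *Apoe* are absent by construction. Leaving out 1 array gave 9 to 11. *Hhex*, 3 probe sets of *Afp* and 4 of *Ttr* kept their call wherever they were tested. The difference of *Rbp4* turned sign under quantile normalization once more (-0.042) and ran from -0.15 to 0.25 with 1 array left out, below 0 without dorsal replicate 1 (-0.07) or ventral replicate 2.

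All tested probe sets gave 1361 calls (765 dorsal and 596 ventral), 601 and 684 with quantile normalization once more, 847 calls with probe sets averaged per gene, 805 at a threshold of 0.01, and 650 to 8893 with 1 array left out (8893 without ventral replicate 1, where the spread comes from the dorsal pair alone). With the replicate number as a block there were 2326, among them *Apoa2* (-0.54, adjusted p = 0.0429 from limma) as the one added member probe set, 11 in all. Deviations of same-numbered arrays correlated at 0.21, but with 2 pairs and no stated pairing the numbers are not taken as pairs. The value against the 40th percentile was chosen after seeing the data.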

Other observations

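Of 6 tested genes of pancreas and duodenum, *Mnx1* (2.51), *Neurog3* (1.51), *Neurod1* (0.99), *Cpa1* (0.88) and *Pdx1* (0.85) were higher dorsally, and *Gcg* (0.13) did not pass (adjusted p = 1.01e-05, 0.000191, 0.00467, 0.0170, 0.0331 and 0.763 from limma). *Pdx1*, a homeobox gene of pancreas and duodenum, did not pass without ventral replicate 1 (0.66) or ventral replicate 2 (1.05), without a filter (adjusted p = 0.0653) or with quantile normalization once more (adjusted p = 0.0781 from limma), nor did *Cpa1* without dorsal replicate 1 (0.77) or 2 (0.98) or without ventral replicate 2 (0.70). *Mnx1*, *Neurog3*, *Neurod1* and *Pdx1* were tested only through their dorsal arrays, and against the ventral 40th percentile they differed by 1.61, 1.41, 0.65 and 0.72. Without either dorsal array none of the 5 was called. *Cdx1*, *Cdx2*, *Ptf1a* and *Nkx2-2* lay at 3.32 to 4.72 and were not tested. The septum transversum is the tissue that the liver bud enters, and its markers were listed together with those of mesothelium. Of 8 tested genes of that joint list, *Bnc1* (3.60), *Wt1* (2.96), *Upk3b* (2.56) and *Hlx* (0.88) were higher dorsally (adjusted p = 4.23e-06, 2.19e-06, 1.36e-05 and 0.0129 from limma) and 4 did not pass. *Wt1* was tested only through its dorsal arrays (2.20 against the ventral 40th percentile). *Tcf21* (-0.71) and *Alcam* (-0.54) were at higher values ventrally without overlap, another *Alcam* probe set passed ventrally (-0.70, adjusted p = 0.0487 from limma), and the list had 1 ventral call with quantile normalization once more. *Hlx* lost its call when dorsal replicate 1 (0.84) or dorsal replicate 2 (0.92) was left out.

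Of 8 tested red blood cell genes, *Slc4a1* (1.30), *Alas2* (1.19), *Klf1* (1.06) and *Hba-x* (1.04) were higher dorsally. *Hba-x* did not pass without dorsal replicate 1 (0.92) or ventral replicate 2 (0.64), nor *Alas2* without ventral replicate 2 (0.99). The *Hba-x* call was also lost without a filter (adjusted p = 0.0682) and with quantile normalization once more (adjusted p = 0.115 from limma). *Hbb-bh1* and *Hbb-y* did not pass in their probe sets with the highest mean. Another probe set of each passed dorsally (0.83 and 0.77, adjusted p = 0.0156 and 0.0202 from limma). Of 6 tested neural crest and glia genes 5 were higher dorsally, led by *Ret* (4.79), *Sox10* (2.05) and *Fabp7* (1.88), and *Ednrb* (-1.37) was higher ventrally. Another tested probe set of *Ret* (0.40) and another of *Sox10* (0.26) did not pass (adjusted p = 0.356 and 0.609 from limma). One of the 5, *Foxd3*, was tested only through its dorsal arrays (0.62 against the ventral 40th percentile) and lost its call with quantile normalization once more (adjusted p = 0.0886 from limma) and without ventral replicate 1 (1.15) or ventral replicate 2 (1.12).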
